A study of Mus musculus with 28 samples.

Results

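The genes described here are 45 protein-coding genes of mitosis and the mitotic spindle, picked by symbol from the 49492 gene symbols counted in gastric corpus epithelium of villin-PPARD transgenic mice and their wild-type (WT) littermates. They fall into 7 roles: entry kinases and cyclins with their transcription factor (9 genes), the spindle checkpoint and anaphase (6), kinetochore and centromere (6), the chromosomal passenger complex (4), spindle motors and microtubule proteins (7), the midzone and cytokinesis (7), and chromosome structure (6). PPARD is a nuclear receptor activated by lipids, placed here under the villin promoter, whose usual site of activity is the intestinal epithelium. The labels give neither the species of the transgene, the mouse strain nor the sex. The corpus is the part of the stomach that makes acid and pepsinogen. Epithelial cells were scraped by hand from its wall and polyadenylated RNA was sequenced in 28 libraries, 1 per mouse. There were 5 villin-PPARD and 5 WT mice at 10 weeks of age, 4 and 4 at 25 weeks, and 5 and 5 at 55 weeks, with no other treatment named for either genotype.

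A dividing cell makes most of these proteins in a short window. Cyclin B with CDK1 drives entry into mitosis, kinesin motors and the kinetochores build the spindle and attach chromosomes to it, the checkpoint holds anaphase until all are attached, and the midzone proteins then part the daughter cells. Transcription of the group peaks late in the cell cycle and is low in resting cells. In the gastric corpus, dividing cells are normally few and sit in the isthmus of the gland, above the chief cells and among the parietal cells.

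Transcripts of many mitosis genes at 10 weeks, of most at 25 weeks and of all 45 at 55 weeks were called higher in villin-PPARD than in WT epithelium. The difference was larger at 55 than at 10 weeks in 44 genes by edgeR's interaction term, and larger than at 25 weeks in 16. That term called 0 genes between 10 and 25 weeks. The column names tag libraries by group, and these tags differ in part between 10 and 55 weeks. Within the tag that those ages share, with fewer libraries fitted, 27 genes were called for 55 against 10 weeks. The 25-week and 55-week libraries share no tag. At 10 weeks 23 of the 45 genes were called higher (edgeR adjusted p under 0.05), when 17.9% of all genes tested were. At 25 weeks it was 42 genes, against 21% of all genes tested, and at 55 weeks 45 genes, against 31.7%. None was called lower at any age, against 16.2%, 18.6% and 27.6% of all genes tested. The median fold was 1.31 at 10 weeks, 1.998 at 25 weeks and 2.80 at 55 weeks. Midzone and cytokinesis genes had the largest differences at 55 weeks, led by Kif4 (4.49-fold) and Kif23 (4.203-fold), and the centromeric histone Cenpa had the smallest (1.46-fold). In WT mice the mean summed level of the group lay between 417 and 451 CPM at all ages (CPM are counts scaled to a common library total).

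The libraries held between 10982900 and 30891100 counts in total, and all 45 genes were among the 15812 that passed the count filter, with at least 14 counts in every library. Markers of epithelium were abundant, with a sum of at least 9971 CPM in every library. Ppard was called higher in villin-PPARD mice at each age, by 0.56, 0.31 and 0.23 on the log2 scale at 10, 25 and 55 weeks (edgeR adjusted p = 0.0307 at 55 weeks). Its level was 110 ± 9.56 CPM in villin-PPARD and 74.1 ± 8.18 CPM in WT libraries at 10 weeks (SD, n = 5 each; CPM was scaled with TMM factors), and 93.3 ± 7.30 CPM in villin-PPARD and 79.4 ± 5.42 CPM in WT libraries at 55 weeks (SD, n = 5 each). The column names carry a tag, Group1 or Group2, and do not say what it stands for. It is called library group here, Group1 being the first and Group2 the second. Group1 marks replicates 1 to 3 of 10 weeks and most of 25 weeks. Every 55-week library is tagged Group2, as are 10-week replicates 4 and 5. WT replicate 3 of 25 weeks is named a replacement in the column names, with no library group. Without it 37 genes in place of 42 were called at 25 weeks. In a fit with a term for library group that library had a level of its own, so it added nothing to the comparisons. WT replicates 2 and 3 of 10 weeks were unusually alike (chi-square per degree of freedom 3.95, against 13.8 to 150.5 for all other pairs within a group) and were kept as separate mice. In bulk RNA, fewer cells of a type and less RNA per cell cannot be told apart, and the same holds for more of either.

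Most of the promoters found for the group held at least 1 of 2 short sequences. One is CCAAT, the site known to bind NF-Y. The other is TTTGAA or its palindromic form TTCGAA, known as the cell cycle genes homology region (CHR), which recruits the DREAM repressor in resting cells and B-MYB with FOXM1 in dividing ones. Windows of 300 bases, with 250 before the transcription start and 50 after it, were taken from RefSeq on GRCm38.p6 and matched 38 members with 40 promoters. Incenp, Kif20a, Aurkb, Foxm1, Tpx2, Ccna2 and Smc4 had no entry. The search took the exact letters on both strands, and overlaps between motifs were allowed. The stretches below run 200 bases, from 170 before to 30 after the start, in the direction of the gene, with CCAAT and both CHR forms in capitals on either strand (on the other strand CCAAT reads ATTGG, and TTTGAA reads TTCAAA). Ccnb2, Cdk1 and Aurka are shown for CCAAT copies that begin 30 to 35 bases apart on the same strand, and Bub1 for the palindromic CHR. Ttk is shown for a pair of CCAAT followed by a CHR on the opposite strand. Kif4 and Kif23 are shown because they differed most at 55 weeks, and Cenpa because it differed least. They lie at chr9:70421525-70421724 (Ccnb2, minus strand), chr10:69352883-69353082 (Cdk1, minus), chr2:172370541-172370740 (Aurka, minus), chr2:127831830-127832029 (Bub1, minus), chr9:83834519-83834718 (Ttk, plus), chrX:100625895-100626094 (Kif4, plus), chr9:61946770-61946969 (Kif23, minus) and chr5:30666716-30666915 (Cenpa, plus).
Ccnb2: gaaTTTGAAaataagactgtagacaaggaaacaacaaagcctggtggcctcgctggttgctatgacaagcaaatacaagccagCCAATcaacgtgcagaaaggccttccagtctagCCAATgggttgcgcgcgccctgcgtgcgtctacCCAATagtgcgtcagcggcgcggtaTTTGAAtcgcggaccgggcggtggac
Cdk1: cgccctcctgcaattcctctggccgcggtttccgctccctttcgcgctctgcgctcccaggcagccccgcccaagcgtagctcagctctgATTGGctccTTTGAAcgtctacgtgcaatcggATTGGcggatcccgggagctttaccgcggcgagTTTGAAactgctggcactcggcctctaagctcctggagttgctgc
Aurka: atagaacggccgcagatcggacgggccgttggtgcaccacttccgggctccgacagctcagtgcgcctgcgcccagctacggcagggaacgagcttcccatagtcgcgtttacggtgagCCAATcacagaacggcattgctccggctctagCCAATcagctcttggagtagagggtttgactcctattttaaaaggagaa
Bub1: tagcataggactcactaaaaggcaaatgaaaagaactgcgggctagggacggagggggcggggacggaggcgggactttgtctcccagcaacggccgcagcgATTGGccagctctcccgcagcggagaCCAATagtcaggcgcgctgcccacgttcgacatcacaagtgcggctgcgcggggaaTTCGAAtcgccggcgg
Ttk: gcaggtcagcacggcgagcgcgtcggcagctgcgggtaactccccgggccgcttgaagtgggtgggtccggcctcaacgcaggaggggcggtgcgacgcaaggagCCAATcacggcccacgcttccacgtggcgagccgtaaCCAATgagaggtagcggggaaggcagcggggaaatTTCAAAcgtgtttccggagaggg
Kif4: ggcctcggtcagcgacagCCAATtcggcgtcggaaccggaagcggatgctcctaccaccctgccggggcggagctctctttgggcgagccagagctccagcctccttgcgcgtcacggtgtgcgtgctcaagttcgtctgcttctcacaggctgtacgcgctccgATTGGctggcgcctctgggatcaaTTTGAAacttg
Kif23: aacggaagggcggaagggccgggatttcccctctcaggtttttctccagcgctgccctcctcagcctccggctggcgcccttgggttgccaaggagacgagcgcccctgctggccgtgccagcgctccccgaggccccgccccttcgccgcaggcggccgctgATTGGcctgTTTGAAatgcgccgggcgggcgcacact
Cenpa: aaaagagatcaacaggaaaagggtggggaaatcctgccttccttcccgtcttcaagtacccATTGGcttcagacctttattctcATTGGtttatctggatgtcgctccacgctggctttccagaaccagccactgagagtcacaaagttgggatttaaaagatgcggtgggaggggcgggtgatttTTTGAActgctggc

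In Ccnb2 the CCAAT copies began at -87, -54 and -21, counting the base before the start as -1, and a TTTGAA began at 5 after it. In Cdk1, CCAAT copies on the opposite strand began at -80 and -48 and TTTGAA at -71 and -15. A further CCAAT on the opposite strand of Cdk1 began at -208, outside the printed stretch. Aurka carried CCAAT at -51 and -19, and its TTTGAA began at 33 after the start, just outside the printed stretch. Across the group, 32 of 40 promoters (80.0%) held CCAAT, against 37.4% of all 32851 promoters of the same length. The share with TTTGAA was also 80.0% (32 of 40), against 17.9% of all promoters, and TTCGAA occurred in 3 of 40 (7.5%), against 1.56%. Both kinds together, CCAAT with either CHR form, stood in 29 of 40 (72.5%), against 7.52%. At least 2 copies of CCAAT were found in 20 of 40 promoters (50%), against 11.7%, and copies on one strand that began 30 to 35 bases apart in 8 of 40 (20%), against 1.19%. That spacing was chosen after the sequences had been seen. The 27 genes with CCAAT and a CHR had a median log2 difference of 1.49 at 55 weeks (range 0.55 to 2.17), the 11 matched genes without the pair 1.38 (0.93 to 1.96), and the 7 genes with no promoter entry 1.65 (0.56 to 1.71). These ranges overlapped. A match describes letters only and was not tested as a site.

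**Figure D1:**
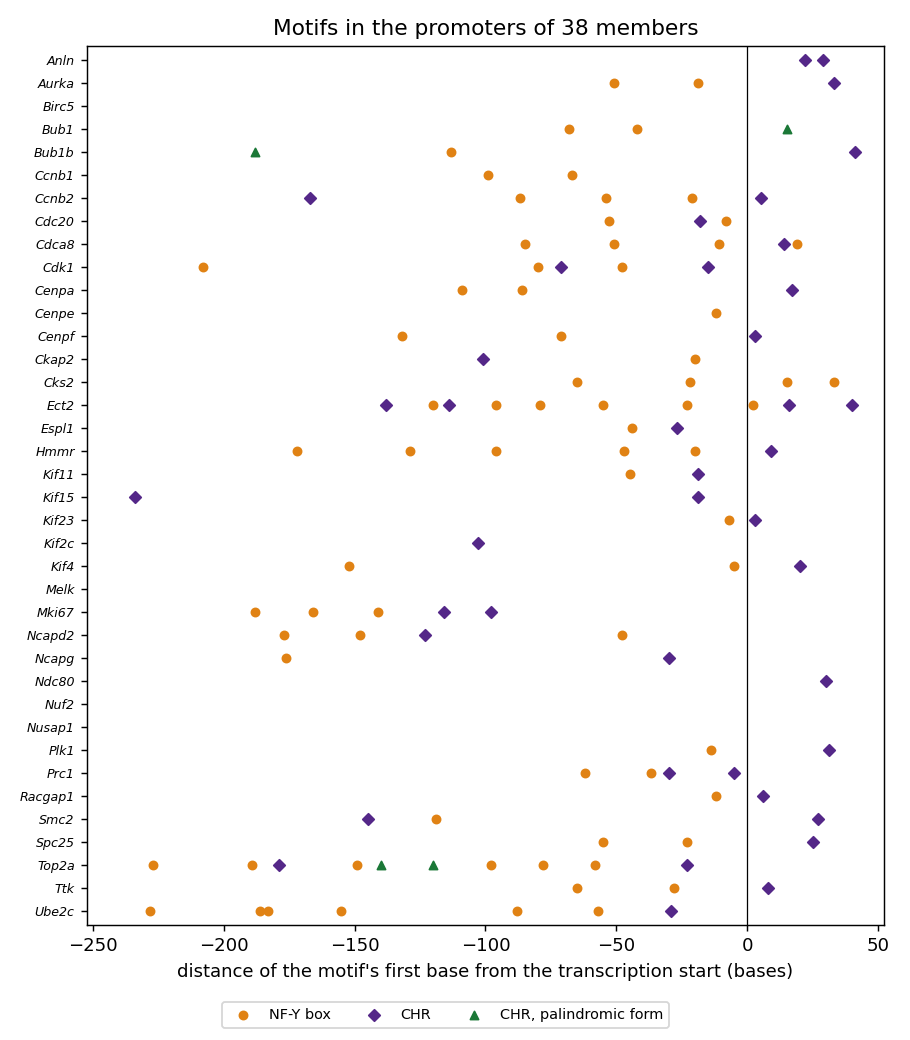
First base of each CCAAT (NF-Y box), TTTGAA (CHR) and TTCGAA (palindromic CHR) on either strand in the promoter windows of the 38 matched genes. The x axis is the distance from the transcription start in bases, and the vertical line marks the start. Where a gene has more than 1 start in the table, each match is plotted against its own start. Of the 40 promoters, 32 hold CCAAT and 29 hold it together with a CHR.

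The summed level of the 45 genes shows the course over the 3 ages. At 10 weeks the sum was 577, 565, 584, 615 and 663 CPM in villin-PPARD libraries and 460, 524, 505, 386 and 381 CPM in WT libraries (replicates 1 to 5), and the lowest villin-PPARD library lay above the highest WT one. At 25 weeks it was 814, 770.0, 873 and 768 CPM in villin-PPARD libraries and 547, 504, 361 and 350 CPM in WT libraries. At 55 weeks it was 1089, 1169, 1237, 972 and 1045 CPM in villin-PPARD libraries and 422, 452, 400.5, 403 and 410 CPM in WT libraries. The genotypes overlapped at no age. The mean in villin-PPARD mice was 601 ± 39.5 CPM at 10 weeks, 806 ± 49.4 CPM at 25 weeks and 1102 ± 104 CPM at 55 weeks, and that in WT mice 451 ± 66.1, 440 ± 99.8 and 417 ± 20.9 CPM (SD, n = 5, 4 and 5). Within 10 weeks, WT replicates 4 and 5, of the second library group, had the lowest sums, and villin-PPARD replicates 4 and 5 the highest. In the 25-week WT libraries, replicates 1 and 2 were high and 3 and 4 low.

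**Figure D2:**
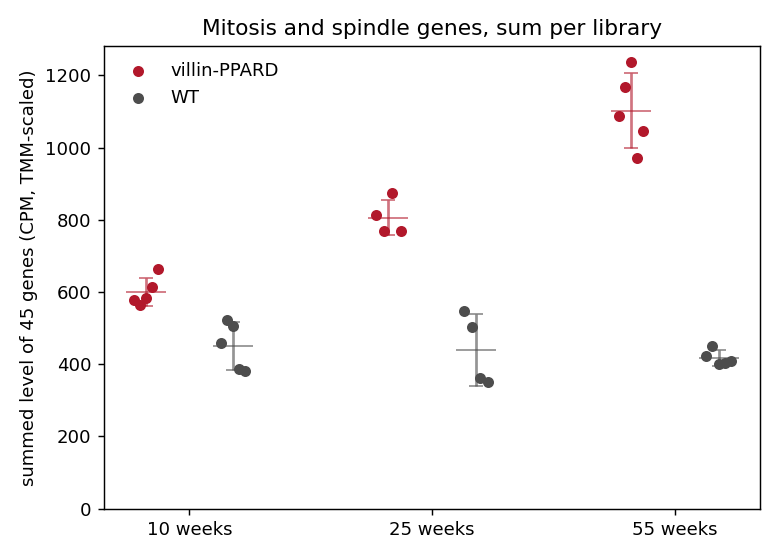
Summed CPM of the 45 mitosis genes in each library (points) by age, villin-PPARD left of WT, with the mean and SD of each group as bars. Villin-PPARD libraries lie at 565 to 663 CPM at 10 weeks, 768 to 873 at 25 weeks and 972 to 1237 at 55 weeks, above the WT libraries of the same age, which lie at 350 to 547 CPM over all ages.

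Which genes differed between genotypes at each age was tested with edgeR's quasi-likelihood F test on all 28 libraries, with Benjamini-Hochberg adjustment over the 15812 genes. The median log2 difference of the mitosis genes was 0.39, 0.998 and 1.49 at the 3 ages, against -0.03, -0.01 and 0.03 over all genes tested. No mitosis gene was called lower at any age by edgeR, DESeq2 or limma-voom, and none had an unadjusted p under 0.05 in that direction in the edgeR fit. Every villin-PPARD library exceeded every WT library in 22 genes at 10 weeks, in 33 at 25 weeks and in 45 at 55 weeks, against 14.5%, 14.9% and 23.9% of all genes tested. A set of 23 genes was called at all ages, 19 more at 25 and 55 weeks, and Espl1, Cenpa and Ncapd2 at 55 weeks alone. The log2 difference reached 1 in none of the genes at 10 weeks, in 22 at 25 weeks and in 40 at 55 weeks. It was larger at 25 than at 10 weeks in 43 genes, all but Cenpa and Espl1, and larger at 55 than at 25 weeks in 43, all but Hmmr and Smc4. At 10 weeks the count depended on the library group. In the first library group alone (3 mice per genotype) 8 genes were called higher and the median log2 difference was 0.19, and in the second alone (2 per genotype) 36 were called and the median was 0.73.

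**Figure D3:**
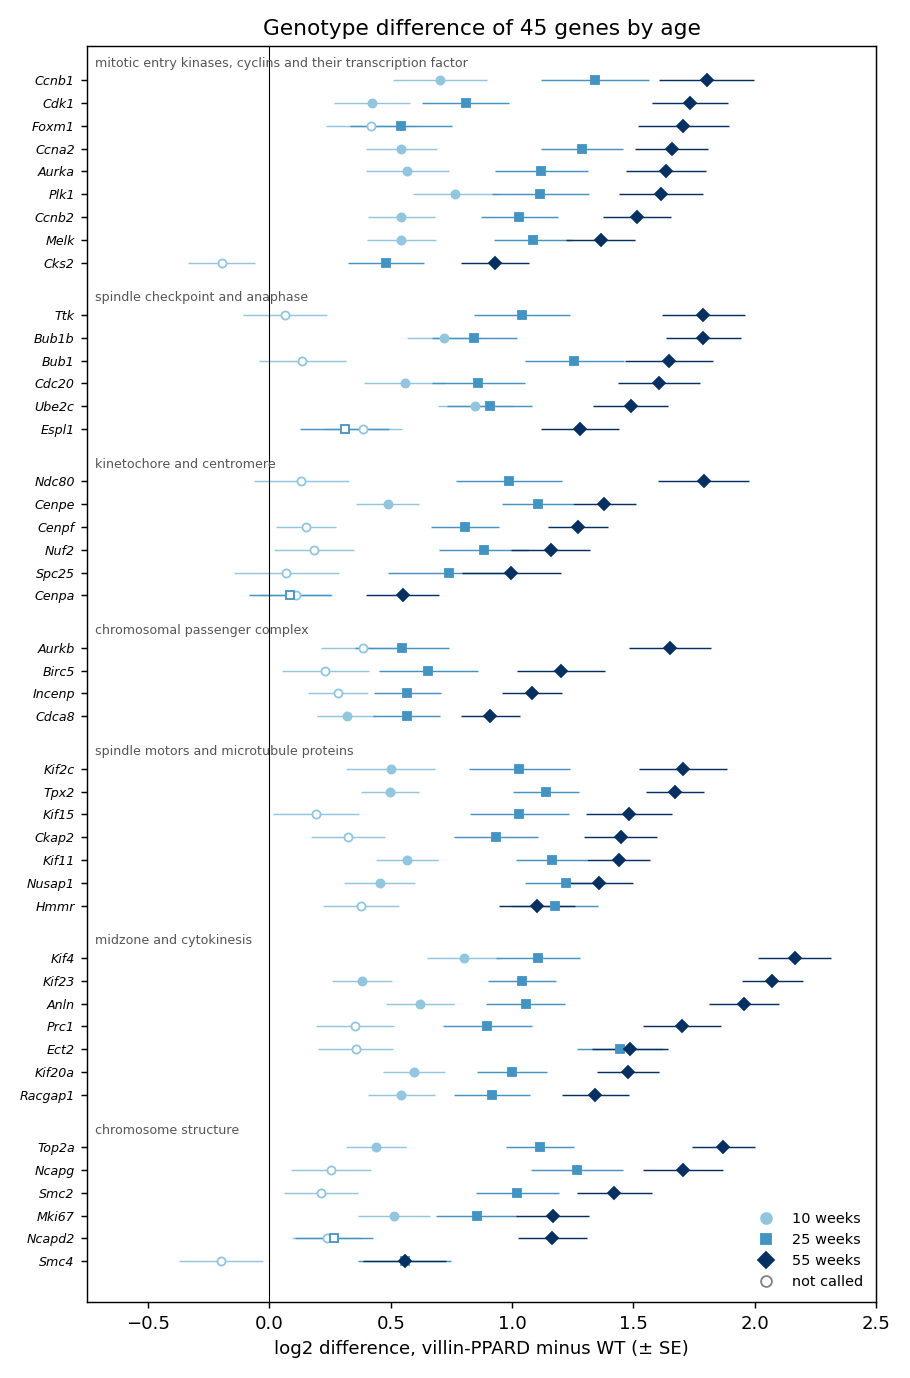
Fitted log2 difference of each mitosis gene, villin-PPARD minus WT, at 10, 25 and 55 weeks, ordered by role. Bars are SE, and open symbols mark genes not called at that age. The log2 differences span -0.20 to 0.85 at 10 weeks, 0.09 to 1.45 at 25 weeks and 0.55 to 2.17 at 55 weeks.

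The 9 entry kinases, cyclins and their transcription factor were called higher in number 7, 9 and 9 at the 3 ages, with median folds of 1.46, 2.12 and 3.10. For this and each role below, the shares of all genes tested called higher were 17.9%, 21% and 31.7%. Ccnb1 encodes cyclin B1, the activator of CDK1. Its level at 55 weeks was 13.2, 14.8, 15.1, 10.1 and 12.2 CPM in villin-PPARD libraries and 2.95, 3.70, 3.74, 3.94 and 4.43 CPM in WT libraries. All villin-PPARD libraries were above all WT ones, and the difference was 1.80 ± 0.20 on the log2 scale (± SE; 3.49-fold, edgeR adjusted p = 4.71e-09). At 25 weeks Ccnb1 stood at 10.2, 8.61, 13.8 and 7.60 CPM in villin-PPARD libraries and 5.57, 2.71, 3.98 and 3.50 CPM in WT libraries, again without overlap, a log2 difference of 1.34 ± 0.22 (adjusted p = 2.94e-05). Cdk1, the kinase itself, had 22.96, 26.4, 29.9, 17.8 and 18.3 CPM in villin-PPARD libraries at 55 weeks and 6.51, 7.10, 6.86, 7.42 and 6.71 CPM in WT libraries. The WT libraries lay close together and well below the lowest villin-PPARD one, and the log2 difference was 1.73 ± 0.16 (adjusted p = 1.19e-10). At 10 weeks Cdk1 differed by 0.42 ± 0.16 (adjusted p = 0.0383), a call lost without any 1 of villin-PPARD replicates 1, 3, 4 and 5 or WT replicates 2, 4 and 5 (log2 0.36 to 0.42 then). Cks2, a small subunit that docks CDK1 to its substrates, was the least changed of the 9 at each age. It had 4.35, 4.56, 5.26, 5.53 and 5.56 CPM in villin-PPARD libraries at 10 weeks and 6.92, 5.67, 5.60, 4.64 and 6.22 CPM in WT libraries, with overlap and no call (log2 difference -0.20 ± 0.14, adjusted p = 0.284). At 25 weeks Cks2 was called at 0.48 ± 0.16 (adjusted p = 0.0155; 0.33 and not called without villin-PPARD replicate 3), and at 55 weeks at 0.93 ± 0.14 (adjusted p = 1.32e-06).

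Plk1, the polo-like kinase that acts on centrosomes, kinetochores and the midzone, already differed at 10 weeks. It had 15, 14.3, 12.3, 12.1 and 11.7 CPM in villin-PPARD libraries and 7.62, 8.01, 7.21, 6.62 and 9.15 CPM in WT libraries, with no overlap (log2 difference 0.77 ± 0.18, adjusted p = 0.00130). At 55 weeks its level was 26.3, 27.7, 30.9, 21.5 and 21.8 CPM in villin-PPARD libraries and 6.31, 7.47, 9.53, 9.10 and 9.54 CPM in WT libraries, a log2 difference of 1.61 ± 0.17 (adjusted p = 4.05e-09). Foxm1 encodes the forkhead factor that activates late cell cycle genes. At 10 weeks it had 8.95, 9.17, 7.39, 10.1 and 10.1 CPM in villin-PPARD libraries and 7.53, 7.00, 7.64, 6.72 and 4.96 CPM in WT libraries, with 1 villin-PPARD library inside the WT range and no call (log2 difference 0.42 ± 0.18, adjusted p = 0.0788), although limma-voom (0.43), the fit with only the groups compared (0.41) and the second library group alone (0.76) called it. At 25 weeks Foxm1 was called at 0.54 ± 0.21 (adjusted p = 0.0401), but not without any 1 of villin-PPARD replicates 1, 3 and 4 or WT replicates 2, 3 and 4 (log2 0.38 to 0.56 then). At 55 weeks it stood at 19.8, 18.2, 20.9, 16.7 and 15.2 CPM in villin-PPARD libraries and 4.15, 4.66, 6.86, 6.61 and 5.60 CPM in WT libraries, a log2 difference of 1.71 ± 0.19 (adjusted p = 4.91e-09). The groups were far apart at that age. Ccna2 (cyclin A2), Ccnb2 (cyclin B2), Aurka (the centrosomal Aurora kinase) and the kinase gene Melk were called at all ages, with folds at 55 weeks of 3.16, 2.86, 3.10 and 2.57.

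Of the 6 checkpoint and anaphase genes, 3, 5 and 6 were called higher, with median folds of 1.39, 1.84 and 3.09. Bub1, a checkpoint kinase at the kinetochore, had 3.21, 3.78, 5.12, 4.79 and 4.73 CPM in villin-PPARD libraries at 10 weeks and 4.15, 4.77, 5.26, 3.18 and 2.10 CPM in WT libraries. The genotypes overlapped fully and the gene was not called (log2 difference 0.14 ± 0.18, adjusted p = 0.595). At 25 weeks it stood at 8.22, 7.87, 7.32 and 7.00 CPM in villin-PPARD libraries and 4.04, 3.33, 2.85 and 2.59 CPM in WT libraries, with a wide gap and a log2 difference of 1.26 ± 0.20 (adjusted p = 2.29e-05). At 55 weeks the difference was 1.65 ± 0.18 (adjusted p = 4.66e-09). Ttk, the kinase also called MPS1 that starts checkpoint signalling, ran in parallel, at 0.06 ± 0.17 (not called), 1.04 ± 0.20 and 1.79 ± 0.17. Bub1b (BubR1), Cdc20 (the activator of the anaphase-promoting complex) and Ube2c (its ubiquitin-conjugating enzyme) were called at all ages. Ube2c had the largest difference of the whole group at 10 weeks (0.85 ± 0.16, adjusted p = 0.000113) and reached 1.49 ± 0.15 at 55 weeks. Espl1 encodes separase, the protease that cuts cohesin at anaphase. It was not called at 10 weeks (0.39 ± 0.16, adjusted p = 0.0613) or 25 weeks (0.31 ± 0.18, adjusted p = 0.179), and was called at 55 weeks (1.28 ± 0.16, adjusted p = 6.85e-08). Without WT replicate 3 of 10 weeks or WT replicate 1 of 25 weeks, Espl1 was called at that age as well, at 0.52 and 0.60.

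Kinetochore and centromere genes had the lowest median fold of the 7 roles at 10 weeks. Cenpe alone of 6 was called then, a count near the 17.9% of all genes tested. At 25 weeks 5 were called and at 55 weeks 6, with median folds over the 3 ages of 1.10, 1.80 and 2.32. Cenpe, a kinesin that carries chromosomes towards the spindle equator, differed by 0.49, 1.11 and 1.38 on the log2 scale. Ndc80, part of the complex that grips microtubules, had the largest difference of the 6 at 55 weeks. Its log2 differences over the ages were 0.13 ± 0.20 (not called), 0.99 ± 0.22 and 1.79 ± 0.19, with means of 6.41 ± 0.505 CPM in villin-PPARD and 1.86 ± 0.255 CPM in WT mice at 55 weeks (SD, n = 5 each). Cenpf, Nuf2 and Spc25, not called at 10 weeks, differed by 0.81, 0.88 and 0.74 at 25 weeks, a call that Spc25 lost without villin-PPARD replicate 3 or 4 or WT replicate 3 or 4 (0.64 to 0.68 then). Cenpa, the histone H3 variant that marks centromeres, stood apart from the rest. At 25 weeks it had 16.6, 17.1, 24.6 and 16.7 CPM in villin-PPARD libraries and 25.4, 14.5, 14.3 and 16.4 CPM in WT libraries. The genotypes overlapped, each with 1 high library, and the log2 difference was 0.09 ± 0.17 (adjusted p = 0.714). At 55 weeks Cenpa had 24.1, 18.01, 19.98, 18.7 and 16.2 CPM in villin-PPARD libraries and 9.86, 11.98, 15.6, 14.5 and 14.5 CPM in WT libraries, a log2 difference of 0.55 ± 0.15 (adjusted p = 0.00247). The lowest villin-PPARD library was only just above the highest WT library. The villin-PPARD mean of Cenpa was much the same at 10, 25 and 55 weeks (18.8 ± 1.10, 18.8 ± 3.93 and 19.4 ± 2.96 CPM), and the WT means were 17.4 ± 2.71, 17.7 ± 5.27 and 13.3 ± 2.34 CPM.

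The chromosomal passenger complex corrects faulty attachments and later marks the cleavage plane. Of its 4 genes, 1, 4 and 4 were called higher, with median folds of 1.23, 1.48 and 2.21. Aurkb, its kinase, had 5.74, 6.60, 5.21, 6.06 and 6.77 CPM in villin-PPARD libraries at 10 weeks and 4.59, 4.98, 5.18, 3.91 and 4.54 CPM in WT libraries. All villin-PPARD libraries were above all WT ones by a narrow margin, yet the gene was not called (log2 difference 0.38 ± 0.17, adjusted p = 0.0825). At 25 weeks Aurkb was called at 0.55 ± 0.19 (adjusted p = 0.0248), and not called without any 1 of villin-PPARD replicates 3 and 4 or WT replicates 2, 3 and 4 (log2 0.42 to 0.51 then). At 55 weeks it had 15.8, 14.4, 16.4, 11.4 and 11.2 CPM in villin-PPARD libraries and 3.80, 4.07, 4.81, 3.98 and 5.41 CPM in WT libraries. That was a wide gap, with a log2 difference of 1.65 ± 0.17 (adjusted p = 1.32e-09). Incenp, the scaffold of the complex, differed by 0.28, 0.57 and 1.08, Birc5 (survivin) by 0.23, 0.66 and 1.20, and Cdca8 (borealin) by 0.32, 0.57 and 0.91. Of these 3, Cdca8 alone was called at 10 weeks (adjusted p = 0.0440), a call that held in 2 of 10 removals of a library, those of villin-PPARD replicate 3 and WT replicate 1. The 25-week call of Birc5 was lost without villin-PPARD replicate 3, WT replicate 3 or WT replicate 4 (log2 0.47 to 0.55 then).

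Spindle motors and microtubule proteins were called in number 4, 7 and 7 of 7, with median folds of 1.37, 2.20 and 2.73. Kif11 encodes Eg5, the kinesin that pushes spindle poles apart. At 10 weeks it had 11.8, 11.9, 14.1, 14.4 and 15.1 CPM in villin-PPARD libraries and 11.2, 9.17, 8.91, 8.08 and 7.90 CPM in WT libraries, with the highest WT library just under the lowest villin-PPARD one (log2 difference 0.57 ± 0.13, adjusted p = 0.00115). At 55 weeks its level was 20.7, 22.7, 22.4, 19.97 and 20.3 CPM in villin-PPARD libraries and 9.71, 7.24, 6.50, 7.29 and 8.12 CPM in WT libraries. The spread within each genotype was small beside the gap, and the log2 difference was 1.44 ± 0.13 (adjusted p = 1.01e-10). Tpx2, which activates Aurora A on spindle microtubules, differed by 0.50, 1.14 and 1.67, and Kif2c, a kinesin that shortens microtubules, by 0.50, 1.03 and 1.70. Kif2c's call at 10 weeks was lost in 6 of 10 removals of a library: villin-PPARD replicates 1, 4 and 5 and WT replicates 1, 4 and 5. Kif15, Hmmr and Ckap2 were not called at 10 weeks, and Hmmr was the 1 gene of this role whose difference was no larger at 55 than at 25 weeks (1.10 and 1.18).

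Midzone and cytokinesis genes had the highest median fold of the 7 roles at 55 weeks, 3.25, after 1.46 at 10 weeks and 2.06 at 25 weeks. They were called in number 5, 7 and 7 of 7. Kif23, the kinesin of the centralspindlin complex, had 15.8, 14.5, 15.8, 16.2 and 18.5 CPM in villin-PPARD libraries at 10 weeks and 12.9, 16.01, 13.02, 9.90 and 9.83 CPM in WT libraries, where WT replicate 2 reached into the villin-PPARD range (log2 difference 0.38 ± 0.12, adjusted p = 0.0181; 0.31 to 0.33 and not called without villin-PPARD replicate 5, WT replicate 4 or WT replicate 5). At 55 weeks it stood at 49.4, 50.2, 46.6, 50.4 and 54.2 CPM in villin-PPARD libraries and 11.7, 12.3, 12.8, 11.2 and 11.8 CPM in WT libraries. Both groups were tight, and the log2 difference was 2.07 ± 0.13 (adjusted p = 2.34e-14). Kif4, the chromokinesin that sets the length of midzone microtubules, had 18.4, 21.3, 18.2, 15.2 and 16.7 CPM in villin-PPARD libraries at 55 weeks and 4.10, 4.73, 4.28, 3.89 and 3.08 CPM in WT libraries. No other gene of the group had a larger log2 difference at that age (2.17 ± 0.15, adjusted p = 4.17e-13), and Kif4 came next after Ube2c at 10 weeks (0.80 ± 0.15). Kif20a, a kinesin that brings the passenger complex to the midzone, had 15.1, 14.2, 11.1, 14.7 and 13.8 CPM in villin-PPARD libraries at 10 weeks and 8.87, 9.33, 10.1, 8.91 and 8.15 CPM in WT libraries, with no overlap (0.60 ± 0.13, adjusted p = 0.000610). At 55 weeks Kif20a stood at 23.2, 26.8, 29.0, 19.0 and 20.1 CPM in villin-PPARD libraries and 9.81, 9.39, 7.22, 7.88 and 7.94 CPM in WT libraries (1.48 ± 0.13, adjusted p = 3.78e-11). Ect2, the exchange factor that switches on RhoA at the cleavage furrow, had the largest log2 difference of all 45 genes at 25 weeks (1.45 ± 0.18, adjusted p = 2.85e-07). Its difference at 55 weeks was nearly equal (1.49 ± 0.16). Anln (anillin, a scaffold of the contractile ring) differed by 0.62, 1.06 and 1.96, Racgap1 (Kif23's partner in centralspindlin) by 0.54, 0.92 and 1.34, and Prc1 (the bundler of midzone microtubules) by 0.35, 0.90 and 1.70.

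Chromosome structure genes were called in number 2, 5 and 6 of 6, with median folds of 1.19, 1.92 and 2.45. Mki67, the Ki-67 protein that coats mitotic chromosomes, was the most abundant of the group. At 55 weeks it had 163, 211, 222, 160.2 and 176 CPM in villin-PPARD libraries and 88.6, 94.2, 79.7, 78.0 and 74.5 CPM in WT libraries. The groups did not overlap, and the log2 difference was 1.17 ± 0.15 (adjusted p = 1.00e-07), below the median of the 45 genes. Top2a, the topoisomerase that untangles sister chromatids, differed by 0.44, 1.11 and 1.87. Its means at 55 weeks were 109 ± 6.77 CPM in villin-PPARD and 29.7 ± 2.12 CPM in WT mice (SD, n = 5 each). Ncapd2, a condensin I subunit, was called at 55 weeks alone. At 25 weeks it had 16.8, 17.7, 21.9 and 14.97 CPM in villin-PPARD libraries and 20.3, 15.3, 12.4 and 11.7 CPM in WT libraries. WT replicates 1 and 2 reached into the villin-PPARD range, and the gene was not called (0.27 ± 0.16, adjusted p = 0.191), but it was without WT replicate 1 (0.46). At 55 weeks Ncapd2 had 32.1, 25.8, 31.1, 26.7 and 25.8 CPM in villin-PPARD libraries and 10.2, 10.9, 13.8, 14.98 and 13.1 CPM in WT libraries, clearly apart (1.17 ± 0.14, adjusted p = 4.18e-08). Ncapg, also of condensin I, and Smc2, the core subunit of both condensins, were called at 25 weeks (1.27 and 1.02) and 55 weeks (1.70 and 1.42). Smc4, the partner of Smc2, differed by -0.20 ± 0.17 at 10 weeks (adjusted p = 0.393), 0.56 ± 0.19 at 25 weeks (adjusted p = 0.0224) and 0.56 ± 0.17 at 55 weeks (adjusted p = 0.00619). The 25-week call of Smc4 was lost without villin-PPARD replicate 1 or WT replicates 1, 3 or 4 (0.45 to 0.54 then).

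**Figure D4:**
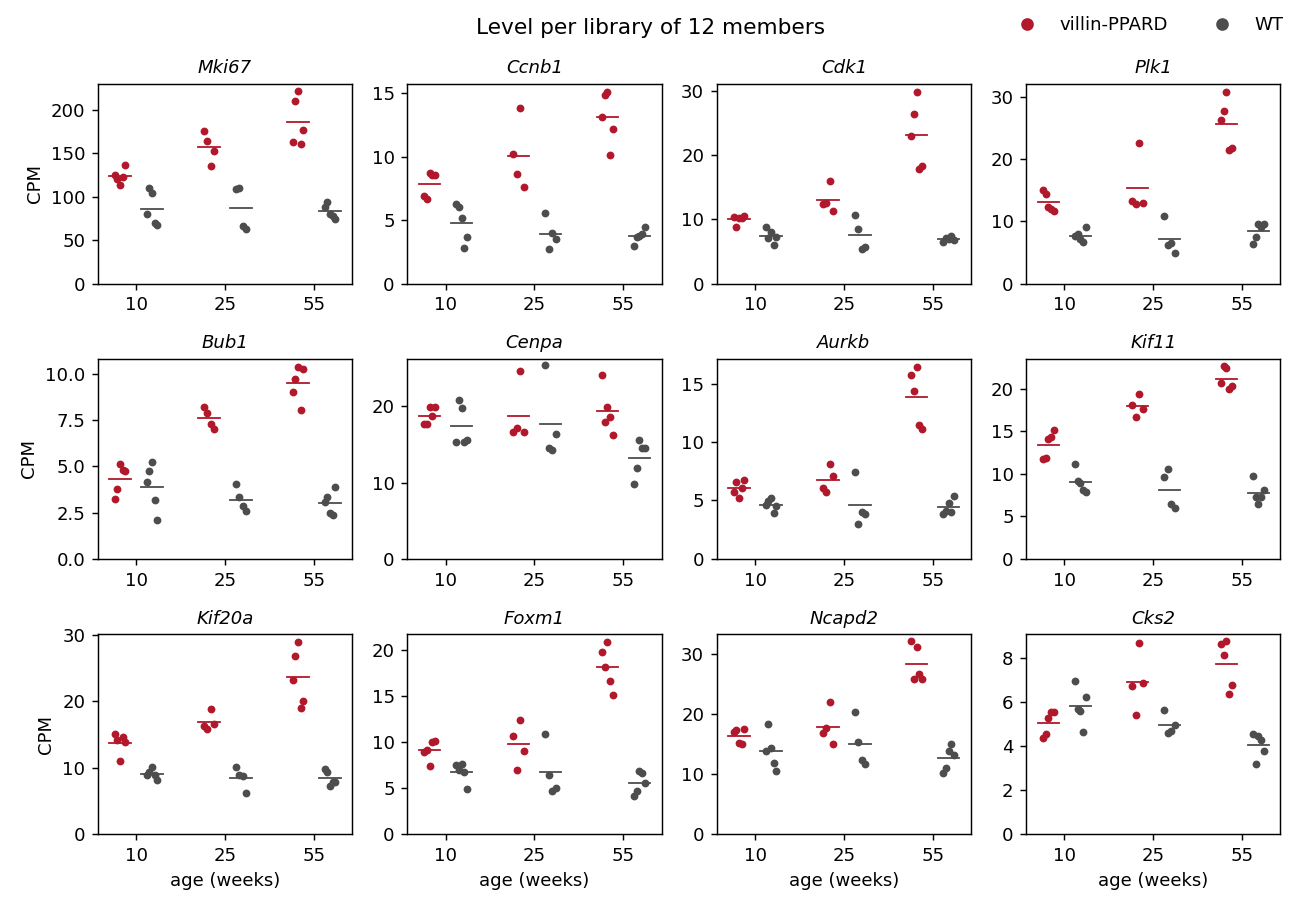
CPM of 12 mitosis genes in each library by age, villin-PPARD left of WT. Points are libraries and lines are means. Cenpa overlaps between the genotypes at 10 and 25 weeks and is just separated at 55 weeks, whereas Cdk1, Foxm1 and Aurkb are far apart at 55 weeks.

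Levels were compared between genes per kilobase of annotated exon. At 55 weeks Mki67 was highest in both genotypes, at 18.5 ± 2.81 CPM per kilobase in villin-PPARD mice and 8.25 ± 0.808 in WT mice (SD, n = 5 each). In villin-PPARD mice the next were Cdc20 (12.1 ± 2.37), Top2a (12.1 ± 0.751), Plk1 (11.7 ± 1.82) and Cks2 (11.2 ± 1.61 CPM per kilobase), which did not differ beyond their spread. In WT mice the next were Cks2 (5.84 ± 0.826), Smc4 (5.25 ± 1.34) and Incenp (4.27 ± 0.450 CPM per kilobase). Smc4 did not differ beyond its spread from either neighbour, whereas Cks2 exceeded Incenp by more than their SDs added. Kif15 (0.903 in villin-PPARD and 0.320 in WT mice) and Ndc80 (0.987 and 0.287) were the lowest in both. Exons of 13 of the 45 genes overlap another annotated gene (GENCODE M21), among them Ccna2 with Exosc9, Cdc20 with Elovl1, Kif20a with Cdc23, Kif4 with Pdzd11 and Ube2c with Tnnc2. The kit does not mark strand, so reads there cannot be told apart, and the annotation also holds pseudogenes of Ccnb1, Ccnb2 and Kif4 that could share reads.

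How the genes moved with age was asked within each genotype. In villin-PPARD mice at 55 against 10 weeks, 44 of 45 genes were called higher and 0 lower, against 27.2% and 24.5% of all genes tested, with a median log2 difference of 0.87. Kif23 had the largest (1.64 ± 0.12), and Cenpa alone was not called (0.05 ± 0.15, adjusted p = 0.815). In villin-PPARD mice at 25 against 10 weeks, 15 genes were called higher and 0 lower, against 1.99% and 0.822% of all genes tested, and 30 had an unadjusted p under 0.05. They were Ccna2, Bub1, Cenpe, Cenpf, Ndc80, Nuf2, Tpx2, Nusap1, Hmmr, Kif23, Ect2, Top2a, Ncapg, Smc2 and Smc4. The condensin pair Smc4 (0.96 ± 0.18, adjusted p = 0.00879) and Smc2 (0.80 ± 0.16, adjusted p = 0.00984) had the lowest adjusted p, with Ect2 (0.81 ± 0.16, adjusted p = 0.00984). Smc4 averaged 38.6 ± 1.39 CPM at 25 weeks (n = 4) and 19.8 ± 5.17 CPM at 10 weeks (n = 5) in villin-PPARD mice. Its 10-week libraries fell into 14.4 and 14.3 CPM (replicates 1 and 2) and 23.1, 21.6 and 25.6 CPM (replicates 3, 4 and 5). The count of 15 fell to 4 without villin-PPARD replicate 1 or 2 of 10 weeks or replicate 1 of 25 weeks, to 8 without replicate 4 of 25 weeks, and to 7 with a term for library group. In villin-PPARD mice at 55 against 25 weeks, which lie in different library groups, 29 genes were called higher and 0 lower, against 24.6% and 22.8% of all genes tested. Kif4 (1.15 ± 0.15), Kif23 (1.10 ± 0.13) and Aurkb (1.03 ± 0.17) led. The 10-week mice lie in both library groups, and with a term for library group 22 genes were called and the median log2 difference was 0.60, against 0.52 without the term.

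In WT mice almost nothing was called. At 25 against 10 weeks edgeR called 0 of 45 genes in either direction, 0 had an unadjusted p under 0.05, and DESeq2 and limma-voom also called 0. The background was 0.0126% of all genes tested called higher and 0 lower. At 55 against 10 weeks 0 genes were called higher and 2 lower, against 6.43% and 6.26% of all genes tested: Cks2 (-0.52 ± 0.14, adjusted p = 0.0161) and Anln (-0.47 ± 0.15, adjusted p = 0.0368). The median log2 difference over the 45 genes was -0.15, and 9 of the 45 differences were above 0. At an unadjusted p under 0.05 in the edgeR fit, 9 genes were lower and 1 higher. Anln averaged 5.77 ± 0.454 CPM at 55 weeks and 7.88 ± 2.08 CPM at 10 weeks. The count of 2 became 0 without WT replicate 1 of 10 weeks or replicate 2 of 55 weeks, 5 without replicate 5 of 10 weeks, and 1 without replicate 2 or 3 of 10 weeks or replicate 3, 4 or 5 of 55 weeks. At 55 against 25 weeks 0 genes were called, against 0.588% of all genes tested higher and 0.512% lower, and 1 in each direction had an unadjusted p under 0.05.

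Whether the genotype difference itself changed with age was tested as an interaction. Between 10 and 55 weeks it grew in 44 of 45 genes, all but Cenpa (0.44 ± 0.21, adjusted p = 0.107), against 18.4% of all genes tested called higher. Ttk (1.73 ± 0.24), Kif23 (1.69 ± 0.18) and Ndc80 (1.66 ± 0.27) grew most, and Cdca8 (0.59 ± 0.17) least of those called. Within the second library group alone, which holds 10-week and 55-week mice, 27 genes were called. With a term for library group, 44 genes were called and the median change was 1.07, the same as without it. That term shifts both genotypes alike, so it cannot take up a genotype difference that itself differs between library groups. At 10 weeks 8 genes were called in the first library group alone and 36 in the second. Between 25 and 55 weeks, which lie in different library groups, the difference grew in 16 genes, against 14.3% of all genes tested, and in 19 with the library group term. They were Cdk1, Foxm1, Bub1b, Ttk, Cdc20, Espl1, Ndc80, Aurkb, Incenp, Tpx2, Prc1, Kif4, Kif23, Anln, Top2a and Ncapd2, led by Foxm1 (1.16 ± 0.28, adjusted p = 0.00212). Without WT replicate 1 of 25 weeks, 10 genes were called. Between 10 and 25 weeks edgeR called 0 genes, although 26 had a larger difference at an unadjusted p under 0.05, and DESeq2 called 3 and limma-voom 10. Of all genes tested, 0 were called in that direction and 0.00632% in the other. Ect2 came nearest (1.09 ± 0.23, adjusted p = 0.160). All 3 interactions share libraries with the genotype comparisons.

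Other cell cycle genes were read from lists that hold none of the 45. Of 61 other mitosis genes, 18, 44 and 58 were called higher at 10, 25 and 55 weeks and 1, 0 and 2 lower, where 17.9%, 21% and 31.7% of all genes tested were called higher and 16.2%, 18.6% and 27.6% lower. The list had a median log2 difference at 55 weeks of 1.35. At that age Nek2 (2.29), a centrosome kinase, Gtse1 (2.20) and Spag5 (2.19) were highest, and the centromere gene Cenpw (-0.71) and Arhgap11a (-0.43) were called lower. Of 20 DNA replication genes, 4, 14 and 20 were called higher and none lower, a count near the 17.9% of all genes at 10 weeks and above the shares of the later ages, with a median at 55 weeks of 1.52. Mcm5 (2.24), a subunit of the replicative helicase, Uhrf1 (2.22) and Rrm2 (2.21), of ribonucleotide reductase, led at 55 weeks, and Gins1 (0.33) was lowest. The log2 difference of Gins1, whose protein loads with the helicase, was 1.60 at 10 weeks and 1.63 at 25 weeks.

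Of 18 activators that act before mitosis, 7, 14 and 16 were called higher and none lower. Ccnd2 (cyclin D2, 3.03), Ccne1 (cyclin E1, 2.10) and Myc (1.999) led at 55 weeks, and Cdk2 and Ccnd3 were not called. Of 16 inhibitors, 2, 4 and 3 were called higher and 6, 1 and 5 lower, where all genes tested gave 17.9%, 21% and 31.7% higher and 16.2%, 18.6% and 27.6% lower, so the counts at 55 weeks lay near or under those shares and are given as a description. At 55 weeks Cdkn1c (p57, log2 difference -2.93), Wee1 (-0.76), Cdkn1a (p21, -0.70), Cdkn1b (p27, -0.58) and Rbl2 (p130, -0.37) were lower, and Cdkn2a, Rbl1 (p107, 0.93) and E2f5 (0.52) higher. Cdkn2a, the locus of p16 and p19ARF, had 0.941 to 1.66 CPM in villin-PPARD libraries at 55 weeks and 0 to 0.185 CPM in WT libraries (adjusted p = 3.60e-08). At 10 weeks Cdkn1b (-0.64), Cdkn2d (-0.62), Wee1 (-0.58), Rbl2 (-0.51), Gadd45a (-0.50) and E2f5 (-0.37) were lower, and Cdkn2b and E2f4 (0.34 each) higher. At 25 weeks Rbl2 (-0.42) was lower, and Rbl1 (0.75), Btg2 (0.46), Cdkn2b (0.34) and E2f4 (0.31) higher.

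**Figure D5:**
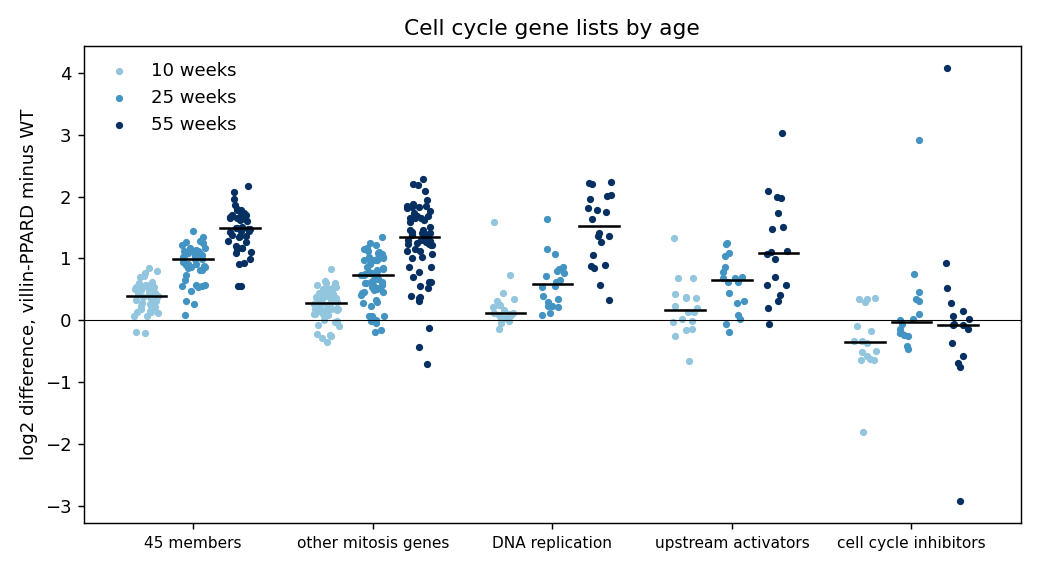
Fitted log2 difference, villin-PPARD minus WT, of every tested gene (points) in the 45 mitosis genes and in 4 lists of other cell cycle genes at 10, 25 and 55 weeks. Bars are medians, which at 55 weeks are 1.49 for the 45 genes, 1.35 for other mitosis genes, 1.52 for DNA replication, 1.09 for upstream activators and -0.07 for inhibitors. The list labelled upstream activators also holds E2f7 and E2f8, which encode repressors.

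Markers of several other cell types in the scraped tissue differed with genotype as well. Of all genes tested, 16.2%, 18.6% and 27.6% were called lower and 17.9%, 21% and 31.7% higher at 10, 25 and 55 weeks. Of 10 parietal cell markers 8, 7 and 8 were lower at 10, 25 and 55 weeks, with Chrm3 alone called higher, at 55 weeks (0.47). Of 6 tested chief cell markers 3, 4 and 6 were lower, of 7 endocrine cell markers 4, 5 and 7, and of 4 tested erythroid markers 2, 4 and 4, with none of these 3 lists called higher. All 6 surface pit cell markers were lower at 55 weeks, whereas 0 and 1 were lower at 10 and 25 weeks and 1 was higher at 10 weeks. At 55 weeks the median log2 difference was -4.51 for parietal, -6.39 for chief, -3.74 for endocrine, -2.64 for erythroid and -1.95 for surface pit cell markers. Mucous neck cell markers were mixed, with 2, 3 and 3 of 6 higher and 2 lower at 55 weeks. Of 7 fibroblast markers 0, 0 and 1 were called higher and 0, 0 and 1 lower. Endothelial markers were called higher in number 1, 1 and 2 of 6 and lower in number 0, 1 and 2. Of 5 smooth muscle markers none was called higher and 0, 0 and 3 lower. Sums were taken over all counted markers of a list, tested or not. The endothelial sum at 10 weeks was 67.1 to 88.9 CPM in villin-PPARD and 14.3 to 39.1 CPM in WT libraries, without overlap. At 25 and 55 weeks the endothelial sums of the genotypes overlapped. The summed parietal markers at 55 weeks ranged over 905 to 1358 CPM in villin-PPARD libraries and 6780 to 10835 CPM in WT libraries, and the summed chief cell markers over 313 to 1351 CPM in villin-PPARD libraries and 25894 to 98970.1 CPM in WT libraries. The surface pit sum ranged over 37602 to 77004 CPM in villin-PPARD libraries and 160823 to 213604 CPM in WT libraries, the endocrine sum over 39.6 to 136 CPM in villin-PPARD libraries and 679 to 1331 CPM in WT libraries, and the erythroid sum over 9.90 to 22.6 CPM in villin-PPARD libraries and 41.9 to 156 CPM in WT libraries.

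Of 9 tested myeloid markers 2, 2 and 8 were called higher at 10, 25 and 55 weeks and none lower. All genes tested gave 17.9%, 21% and 31.7% higher. The myeloid counts at 10 and 25 weeks and the B and plasma cell count at 10 weeks lay near those shares. The myeloid sum was 76.8 to 89.8 CPM in villin-PPARD and 26.8 to 71.98 CPM in WT libraries at 10 weeks, without overlap, 73.4 to 144 CPM in villin-PPARD and 40.7 to 111 CPM in WT libraries at 25 weeks, and 143 to 289 CPM in villin-PPARD and 84.4 to 95.9 CPM in WT libraries at 55 weeks. Of 6 tested B and plasma cell markers 1, 0 and 5 were called higher, and Derl3 was called lower at each age (-1.54 at 55 weeks). The B and plasma cell sum at 55 weeks was 84.9 to 273 CPM in villin-PPARD libraries and 25.5 to 39.4 CPM in WT libraries. Of 7 tested T and natural killer cell markers 0, 0 and 7 were called higher. The sum over all 10 markers of that list was 2.56 to 3.80 CPM in villin-PPARD and 1.71 to 3.49 CPM in WT libraries at 25 weeks. At 55 weeks it was 9.14 to 27.0 CPM in villin-PPARD and 3.85 to 5.54 CPM in WT libraries. Epithelial markers were called higher in number 4, 5 and 3 of 6 and none lower. The markers at 0 in all libraries of a group were Lipf, of chief cells, in both genotypes at 25 weeks and in WT mice at 55 weeks, and, of myeloid cells at 10 and 25 weeks, Ly6g in both genotypes and S100a8 in villin-PPARD mice. The part of these marker changes in the mitosis gene differences was not tested.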

How the data were processed

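Epithelial cells scraped from the gastric corpus of 28 mice gave polyadenylated RNA libraries made with a kit that does not mark strand and read as paired ends, per the labels' protocols. The authors deposited raw read counts for 49492 gene symbols. They were made with TopHat2 (2.0.14) and HTSeq (0.6.1) on mm10, per the submitters' processing notes, where DESeq2 is listed as well, with no version. Which annotation and strand setting were used is not stated there. Reads shared by overlapping genes or near-identical copies may have been split or dropped by the counting.

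Libraries were grouped by genotype and age from the labels. The filter filterByExpr kept 15812 genes and library sizes were scaled with TMM. In R 4.3.3, edgeR (4.0.16) was fitted once to the 28 libraries with robust dispersions, and its two-sided quasi-likelihood F test was applied to 12 contrasts: genotype at each age, pairs of ages within a genotype, and the interactions of genotype with age. A gene was called where p, adjusted by Benjamini-Hochberg over all genes tested, was under 0.05. Each SE is the log2 difference over the square root of F, without sign. CPM are counts scaled with TMM, and CPM per kilobase divides them by the exon length of GENCODE M21 on GRCm38, the build also called mm10. Other settings tried were no scaling beyond library size, DESeq2 size factors, an unfiltered table, a mean of at least 1 CPM, DESeq2 (1.42.0) Wald tests, limma-voom (limma 3.58.1) with sample weights, only the groups compared, a replicate block, a library group term, library groups alone and the removal of each library. A fit with WT replicates 2 and 3 of 10 weeks summed was added after the data had been seen. Simulated counts were used to check the tests.

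The 45 genes, the 7 roles, the 4 lists of other cell cycle genes and the 13 marker lists were chosen with earlier results of these data known. Genes named in the text are 28 listed members and the 2 highest and 2 lowest log2 differences per genotype comparison. Members called in no such comparison, or called lower, were also to be named. From the other lists they are the 3 highest called genes at 55 weeks and all called inhibitors. The 3 lowest called genes of each list were planned too but are named only in part, with none for the activators. Kif15, Hmmr, Kif2c, Ckap2, Prc1, Racgap1, Anln, Melk, Cdca8, Ncapg, Smc2 and Gins1 at the earlier ages, Chrm3, Derl3, Lipf, Ly6g and S100a8, and genes listed as called in age comparisons, were named after their values had been seen. E2f7 and E2f8 were also named with their values known. Replicate numbers did not pair the samples.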

Additional observations from a re-analysis of the deposited data

Results flagged for a closer look

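The genes shown by library and the sum of the 45 genes were checked in each of the 6 groups of 4 or 5 libraries, 78 sets of values. In 3 sets 1 library lay far from the rest of its group, and chance alone gives about 1 in 20. The sets share libraries and are not independent. In villin-PPARD mice of 10 weeks, replicate 2 was lowest for Cdk1 at 8.87 CPM, with the others at 10.14 to 10.51 CPM. In villin-PPARD mice of 25 weeks, replicate 3 was highest for Plk1 at 22.6 CPM (others 12.8 to 13.2 CPM) and for Cenpa at 24.6 CPM (others 16.6 to 17.1 CPM). That library had the highest level of its group in 32 of the 45 genes.

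The genotype difference was larger at 55 than at 10 weeks in 44 genes and larger at 55 than at 25 weeks in 16 genes, by edgeR's interaction term. For the genes shown by library, the change in log2 difference at 55 against 10 weeks was 0.65 for Mki67, 1.10 for Ccnb1, 1.31 for Cdk1, 0.85 for Plk1, 1.51 for Bub1, 1.27 for Aurkb, 0.87 for Kif11, 0.88 for Kif20a, 1.29 for Foxm1, 0.93 for Ncapd2 and 1.13 for Cks2. Library group differs in part between 10 and 55 weeks, and the 25-week and 55-week libraries share no library group. With a term for library group 44 and 19 genes were called, and the median change over the 45 genes was 1.07 at 55 against 10 weeks and 0.55 at 55 against 25 weeks, with 1.07 and 0.48 without the term. The term shifts both genotypes alike and cannot take up a genotype difference that depends on library group.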

How the results depend on the processing

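At 55 weeks all 45 genes were called higher under every alternative run, and none of the 3 genotype comparisons gave a lower call. The count at 10 weeks (23) was 19 to 24 with 1 library left out, 8 in the first library group alone and 36 in the second. At 25 weeks (42) it was 37 to 43 with 1 library left out and 36 to 44 otherwise. In villin-PPARD mice at 25 against 10 weeks (15) it was 4 to 14 with 1 library left out, 24 by limma-voom and 7 with a library group term; at 55 against 25 weeks (29) it was 26 to 32 and otherwise 22 to 41. In WT mice at 55 against 10 weeks the count called lower (2) was 0 to 5 with 1 library left out, 0 by library size alone, 5 by limma-voom, 1 with only the groups compared, 0 with a library group term, 0 in the second library group alone and 1 with WT replicates 2 and 3 summed. For the change of the genotype difference between 10 and 25 weeks (0) it was 0 to 2 with 1 library left out, 3 by DESeq2 and 10 by limma-voom. Between 10 and 55 weeks (44) it was 44 with 1 library left out and 27 in the second library group alone. Fewer libraries were fitted there, and among the genes shown by library Mki67, Ccnb1 and Bub1 lost the call. Their log2 changes were 0.24, 0.37 and 0.83 in that group, against 0.65, 1.10 and 1.51 in the main fit. Between 25 and 55 weeks (16) the count was 10 to 24 with 1 library left out and 32 by library size alone. Library size alone moved the median log2 difference of all genes to 0.15 at 25 weeks and 0.43 at 55 weeks, and that of the 45 genes to 1.16 and 1.88, so the distance between them stayed near the one with TMM. The cause of these shifts was not tested. Of 4095 single-gene values under alternatives, 47 lost a call and 8 gained one with 1 library left out, 48 lost and 31 gained one otherwise, and no called value changed sign.

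The replicate numbers do not pair the mice: same-numbered libraries correlated at -0.42 to 0.23, and not every library correlated best with its own number. With the replicate block 24, 42 and 45 genes were called higher at the 3 ages, 10 in villin-PPARD mice at 25 against 10 weeks, and 44 and 16 for the later changes of the genotype difference. Depth limits the least abundant genes, such as Spc25, which had 14 counts in 1 library.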
